A study of Mus musculus with 24 samples.

Results

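This section covers 64 genes of the 4 classical axon guidance systems, of 22180 genes measured, in cells sorted from mouse hindbrain and from mouse medulloblastomas, tumours of the hindbrain. The members were taken by gene symbol alone: 20 semaphorins and 9 plexins, 3 Slits and 4 Robos, 3 netrins and 4 Unc5 receptors, 8 ephrins and 13 Eph receptors. Where a gene had several probe sets, that of the greatest average over 24 arrays stood for it. Symbols and not differences between groups set the rule, though earlier results of these data were known when members and lists were chosen. Cells were pulled down with magnetic beads through Cd144 (VE-cadherin, gene Cdh5) and Cd105 (endoglin, gene Eng), surface proteins of blood vessel lining, and their RNA was hybridised to Affymetrix arrays. There were 3 groups of 8 arrays, all from mice of mixed strain background and labelled as biological replicates. The first was adult hindbrain of wild type mice. The second was Shh medulloblastoma of mice with Ptch+/- and Ink4c-/- alleles, for which the labels name no Cre, and the third was Wnt medulloblastoma of mice carrying Blbp-Cre with Ctnnb1 +/Exon3 flox, Trp53 flox/flox and Pik3ca +/flox alleles. Blbp-Cre is driven by the promoter of a gene of neural progenitors and glia, so recombination is directed to that lineage, and whether the sorted cells carried recombined alleles was not measured. The labels give no age for the tumour mice.

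Axon guidance proteins steer growing nerve fibres by attraction or repulsion, and the same ligands and receptors guide sprouting blood vessels. Slits bind Robos, netrins bind Dcc, neogenin and Unc5 receptors, most semaphorins bind plexins (secreted class 3 semaphorins mainly through neuropilin co-receptors), and membrane-bound ephrins bind Eph receptor kinases on neighbouring cells. In endothelium, Robo4, Unc5b, Plxnd1 and the pair Efnb2 and Ephb4 are known for roles in vessel stability, sprouting and the difference between arteries and veins. The comparisons ask how these genes differ between vessel cells of normal hindbrain and of each tumour, and between the tumours.

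Both sort antigens were bright in every group, with group means of Cdh5 between 12.41 and 12.89 and of Eng between 12.09 and 12.83 on the log2 scale. The mean of 16 endothelial markers was 10.47 ± 0.47 in Wnt arrays (SD, n = 8), against 11.61 ± 0.11 for hindbrain and 11.49 ± 0.22 for Shh, and it was lowest in Wnt replicates 1 (9.91) and 8 (9.75). All 16 were above the level read here as background, 5.24, the 95th percentile of the means of 92 ERCC control probe sets, which match no mouse gene. In these sorted but bulk samples, fewer cells of a type and less RNA per cell cannot be told apart. Marker lists of other cells stand beside the results at the end. Of the 64 members, 60 had means above 5.24 in all 3 groups. Robo3 and Sema3e exceeded it in 1 group each, and Epha5 and Epha6 in none, so these last are near background and no fold is given for them, though Epha6 counts among the calls below.

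Values below are deposited log2 intensities, and a difference is that of group means ± its standard error in a limma fit to all 24 arrays, with p-values adjusted over 22180 genes by Benjamini-Hochberg. A member rose or fell where the adjusted p was under 0.05. The fit shares the variance of a gene over all 3 groups, so an array outside a comparison can also change its call. Levels of different genes come from different probe sets and are not ranked against each other. Both tumours are set against the same 8 hindbrain arrays.

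Guidance genes moved in both directions in each comparison. In Wnt tumours against hindbrain, 30 of 64 members rose and 14 fell (68.8% in either direction), where 45.3% of all genes were called, and 23.2% rose and 22% fell. In Shh tumours against hindbrain, 20 rose and 15 fell (54.7%), against 37.8% of all genes called, 18.9% up and 18.9% down. Between the tumours, 21 were higher in Wnt and 16 lower (57.8%), against 35.8% of all genes, 18% up and 17.8% down. Low signal limits what can be called, and among the 17010 genes above 5.24 in at least 1 group the shares called were 57.8%, 47.5% and 45.5% in the same order. The median difference over the members was 0.34, 0.11 and 0.15, against -0.023, -0.019 and -0.0019 over all genes. Of all genes called, 51.3% were higher in Wnt than in hindbrain and 50.3% higher in Wnt than in Shh, and after shifting every array to the same median these shares were 59.9% and 62.2%.

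**Figure D1:**
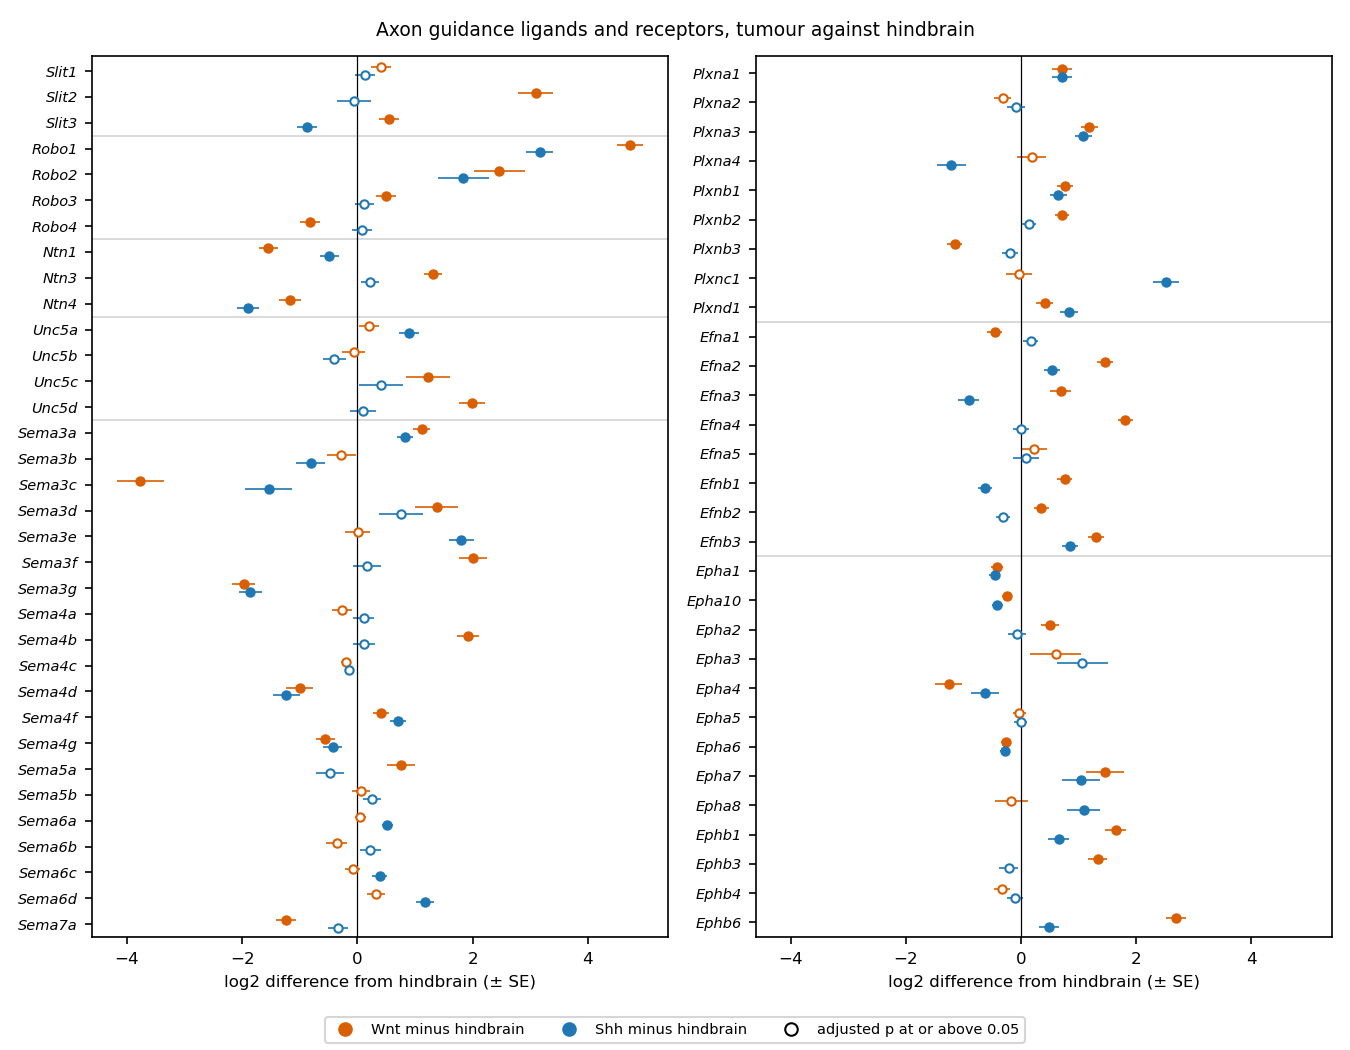
Log2 difference from hindbrain (± SE) of each of the 64 members in Wnt (orange) and Shh (blue) arrays, grouped by family, with open circles where the adjusted p was at or above 0.05. Robo1 and Slit2 lie farthest to the right in Wnt tumours, at 4.73 and 3.09, and Sema3c farthest to the left, at -3.77.

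The Slit and Robo family held the largest rises among the members. Slit2, a secreted ligand of Robo receptors, was high in Wnt arrays alone. Its values ranged over 8.69 to 11.44 (median 9.98) in Wnt tumours, 6.35 to 7.22 (median 7.03) in Shh tumours and 6.46 to 8.07 (median 6.65) in hindbrain. The lowest Wnt array was above the highest array of both other groups. Slit2 rose 8.53-fold in Wnt against hindbrain (3.09 ± 0.30, adjusted p = 4.74e-09) and 8.9-fold against Shh (3.15 ± 0.30, adjusted p = 7.47e-09), with -0.06 ± 0.30, adjusted p = 0.897 in Shh against hindbrain. Slit3, a related ligand, went in opposite directions in the 2 tumours. It lay at 7.37 to 7.83 (median 7.55) across hindbrain arrays, at 6.18 to 7.17 (median 6.62) across Shh arrays and at 7.41 to 8.79 (median 8.02) across Wnt arrays, so every Shh array was below every hindbrain array and below every Wnt array. Slit3 fell in Shh tumours (-0.87 ± 0.17, adjusted p = 0.000305) and rose in Wnt tumours with overlapping arrays (0.55 ± 0.17, adjusted p = 0.0112). The Wnt tumours exceeded the Shh tumours by 1.43 ± 0.17, adjusted p = 4.4e-07. The Wnt rise was 0.72 ± 0.34, adjusted p = 0.156 and not called with the endothelial marker mean as a covariate. The third ligand, Slit1, had 0.41 ± 0.18, adjusted p = 0.0661 in Wnt and 0.14 ± 0.18, adjusted p = 0.585 in Shh tumours. The Wnt value passed the test when any 1 of 3 arrays was left out, with differences from 0.41 to 0.49.

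Robo1, a receptor of Slits known from neurons and also present in vessels, rose in both tumours. It spanned 5.90 to 6.65 (median 6.47) in the hindbrain arrays, 8.88 to 10.29 (median 9.48) in the Shh arrays and 9.99 to 11.78 (median 11.23) in the Wnt arrays. Neither tumour overlapped the hindbrain, while the tumours overlapped each other between 9.99 and 10.29. The rise was 26.6-fold in Wnt (4.73 ± 0.23, adjusted p = 2.67e-14) and 8.97-fold in Shh (3.16 ± 0.23, adjusted p = 1.35e-10), and Wnt was higher than Shh (1.57 ± 0.23, adjusted p = 6.15e-06). Robo2, a Slit receptor next to Robo1 on the chromosome, ranged over 6.18 to 10.67 (median 8.51) in Wnt tumours, 7.49 to 9.02 (median 7.78) in Shh tumours and 5.87 to 6.57 (median 6.31) in hindbrain. It rose in both (2.47 ± 0.44, adjusted p = 4.69e-05 in Wnt, 1.84 ± 0.44, adjusted p = 0.0018 in Shh), but Wnt replicate 3, the lowest Wnt array, lay within the hindbrain range. Without Wnt replicates 1 and 8 the Wnt difference was 1.95 and still passed the test.

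Robo4, the Robo of endothelium, went the other way. It lay at 10.77 to 11.34 (median 11.16) across hindbrain arrays, at 10.91 to 11.43 (median 11.13) across Shh arrays and at 9.52 to 11.04 (median 10.40) across Wnt arrays. Hindbrain and Shh arrays overlapped over most of their range and the Wnt arrays reached lower, with some overlap. Robo4 fell in Wnt against hindbrain (-0.83 ± 0.17, adjusted p = 0.000311) and against Shh (-0.90 ± 0.17, adjusted p = 0.000184), with 0.08 ± 0.17, adjusted p = 0.768 in Shh against hindbrain. The fall of Robo4 lay beside that of the endothelial markers, whose median difference in Wnt tumours was -0.99. With the endothelial marker mean as a covariate, the Robo4 difference turned to 0.47 ± 0.12, adjusted p = 0.00593 against hindbrain. Robo3, a Robo of commissural neurons and the chromosomal neighbour of Robo4, rose in Wnt (0.50 ± 0.17, adjusted p = 0.0171) from a hindbrain mean below 5.24, so the size of that difference is uncertain.

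The stretches just upstream of 4 members are shown because they include the ligand and receptor with the largest rises and 2 of the 3 members that hold a core motif of the TCF and LEF factors, through which beta-catenin acts. Each is the 250 bases before the annotated start, 5′ to 3′ on the strand of the gene, from RefSeq on GRCm38.p6: Robo1 at chr16:72662899-72663148 and Slit2 at chr5:47982905-47983154, Robo4 at chr9:37401722-37401971 and Sema3e at chr5:14025026-14025275, all on the plus strand. Capitals mark the core CTTTGA, here on the reverse strand as TCAAAG.
Robo1: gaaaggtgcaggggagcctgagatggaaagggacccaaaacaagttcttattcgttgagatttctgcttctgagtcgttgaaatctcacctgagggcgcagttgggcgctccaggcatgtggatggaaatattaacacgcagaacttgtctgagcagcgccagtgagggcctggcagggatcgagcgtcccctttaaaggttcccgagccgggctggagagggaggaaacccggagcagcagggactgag
Slit2: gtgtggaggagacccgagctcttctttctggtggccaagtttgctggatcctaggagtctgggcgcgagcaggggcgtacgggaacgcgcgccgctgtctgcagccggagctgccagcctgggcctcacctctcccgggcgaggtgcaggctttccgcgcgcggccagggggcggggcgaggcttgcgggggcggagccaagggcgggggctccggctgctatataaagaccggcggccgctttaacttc
Robo4: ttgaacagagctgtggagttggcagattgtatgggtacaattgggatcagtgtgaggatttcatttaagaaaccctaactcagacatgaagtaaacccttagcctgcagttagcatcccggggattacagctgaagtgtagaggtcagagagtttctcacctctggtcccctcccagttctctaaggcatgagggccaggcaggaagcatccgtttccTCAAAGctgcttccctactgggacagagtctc
Sema3e: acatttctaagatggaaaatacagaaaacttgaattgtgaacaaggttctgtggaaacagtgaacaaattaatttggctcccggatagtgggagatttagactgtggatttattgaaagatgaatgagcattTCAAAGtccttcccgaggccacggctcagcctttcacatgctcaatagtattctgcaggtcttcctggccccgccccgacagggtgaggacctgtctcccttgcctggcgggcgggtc
An upstream stretch was listed for 55 of the 64 members, matched by gene ID, and the first listed start was used. The core CTTTGA, searched on both strands, stood in 3 of 55 (5.45%: Epha2, Robo4 and Sema3e), against 13.8% of all 32851 stretches of that length. The letters GACCACCCA, a motif of the GLI factors of the Shh pathway, stood in 0 of 55 and in 0.225% of all. The stretches of Slit2 and Robo1 were 69.6% and 56% G or C, those of Robo4 and Sema3e 49.6% and 48%, where the median was 64.8% over the members and 52.4% over all. A match or its absence describes these letters only.

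Netrins differed from each other. Ntn1, the founding netrin, spanned 8.76 to 9.60 (median 9.15) in the hindbrain arrays, 8.15 to 9.05 (median 8.55) in the Shh arrays and 7.04 to 8.13 (median 7.50) in the Wnt arrays, with every Wnt array below every hindbrain and Shh array. It fell 2.92-fold in Wnt against hindbrain (-1.55 ± 0.16, adjusted p = 2.03e-08) and less in Shh (-0.49 ± 0.16, adjusted p = 0.0211), a call that was lost without hindbrain replicate 2 (-0.42, adjusted p = 0.0503). Ntn1 was lower in Wnt than in Shh tumours (-1.06 ± 0.16, adjusted p = 1.16e-05). Ntn4, a netrin of vascular basement membranes, fell most in Shh tumours. It ranged over 7.20 to 8.85 (median 8.33) in Wnt tumours, 6.93 to 7.98 (median 7.69) in Shh tumours and 8.99 to 9.77 (median 9.48) in hindbrain, and neither tumour overlapped the hindbrain. The fall was 3.74-fold in Shh (-1.90 ± 0.19, adjusted p = 2.59e-08) and 2.25-fold in Wnt (-1.17 ± 0.19, adjusted p = 1.26e-05), and Wnt was above Shh (0.73 ± 0.19, adjusted p = 0.00343). Ntn3 rose in Wnt tumours, from 6.41 to 6.77 (median 6.6) in hindbrain and 6.49 to 7.06 (median 6.86) in Shh to 7.23 to 8.55 (median 7.87) in Wnt arrays. Its differences were 1.31 ± 0.15, adjusted p = 8.91e-08 against hindbrain and 1.09 ± 0.15, adjusted p = 2.93e-06 against Shh, with no overlap in either, and 0.22 ± 0.15, adjusted p = 0.264 in Shh against hindbrain.

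Of the Unc5 receptors, which mediate repulsion by netrins, the endothelial one was not among those that passed the test. Unc5b lay at 9.63 to 10.47 (median 10.21) across hindbrain arrays, at 9.33 to 10.18 (median 9.59) across Shh arrays and at 9.22 to 10.79 (median 9.96) across Wnt arrays, and all 3 groups overlapped. Its differences were -0.07 ± 0.20, adjusted p = 0.83 in Wnt and -0.40 ± 0.20, adjusted p = 0.128 in Shh. Unc5d, known from neurons, rose 3.97-fold in Wnt against hindbrain (1.99 ± 0.23, adjusted p = 7.27e-08) and 3.7-fold against Shh (1.89 ± 0.23, adjusted p = 3.48e-07). It spanned 5.76 to 6.35 (median 6.17) in the hindbrain arrays, 5.68 to 6.86 (median 6.25) in the Shh arrays and 7.15 to 9.19 (median 7.96) in the Wnt arrays, with the Wnt arrays above all others. Unc5c rose in Wnt against hindbrain (1.23 ± 0.38, adjusted p = 0.00976), with arrays spread from 6.37 to 9.70, and without Wnt replicates 1 and 8 it no longer passed (0.76, adjusted p = 0.0766). Unc5a rose in Shh tumours without overlap (0.90 ± 0.17, adjusted p = 0.000224), from a range of 6.48 to 6.89 (median 6.66) in hindbrain to 7.24 to 8.50 (median 7.46).

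**Figure D2:**
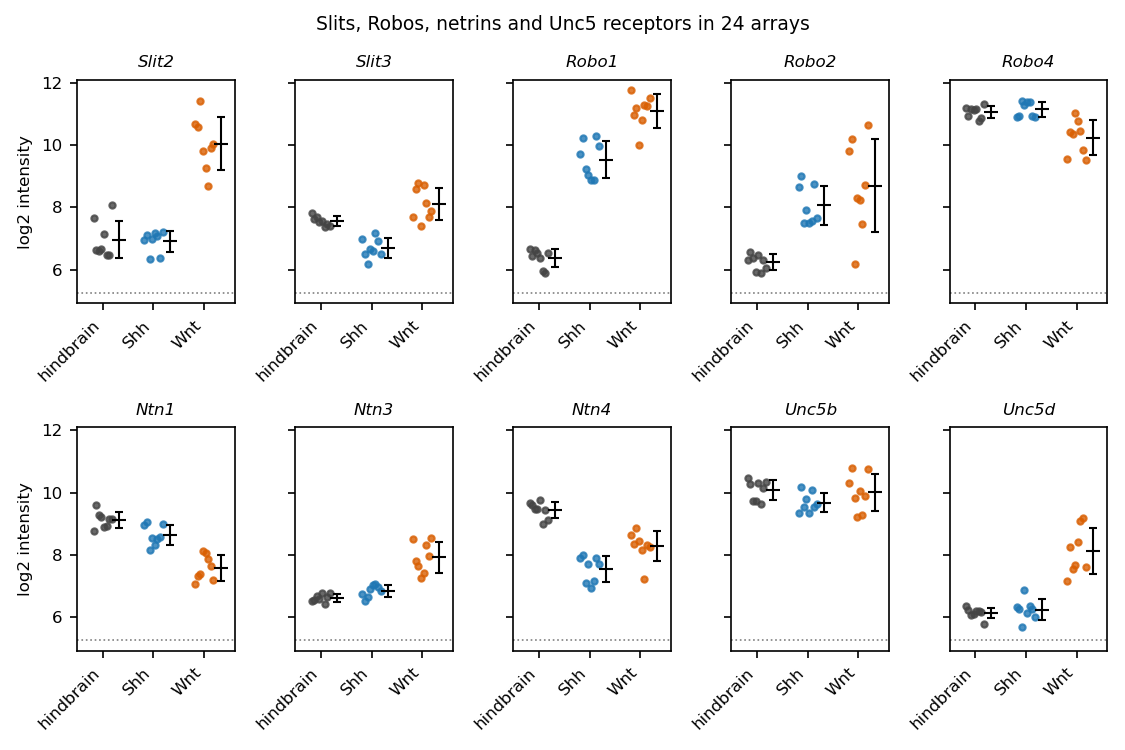
Log2 intensity of 10 Slits, Robos, netrins and Unc5 receptors, 1 point per array in hindbrain (grey), Shh (blue) and Wnt (orange), with the mean ± SD (n = 8) beside the points and the 95th percentile of the ERCC controls (5.24) as a dotted line. Robo1 is above the hindbrain range in all 16 tumour arrays, and Slit2 only in the 8 Wnt arrays.

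Secreted semaphorins of class 3 held the largest fall of all members, and others of the class rose. Sema3c, which acts on endothelium and neurons, ranged over 5.50 to 9.11 (median 7.97) in Wnt tumours, 8.32 to 11.30 (median 10.32) in Shh tumours and 11.35 to 11.95 (median 11.63) in hindbrain. No tumour array reached the lowest hindbrain array, and the tumour arrays were spread far wider than the hindbrain arrays (SD 0.93 in Shh and 1.17 in Wnt against 0.20). Sema3c fell 13.7-fold in Wnt (-3.77 ± 0.41, adjusted p = 2.86e-08) and 2.9-fold in Shh (-1.54 ± 0.41, adjusted p = 0.00406), and was lower in Wnt than in Shh (-2.23 ± 0.41, adjusted p = 9.6e-05). Sema3g, a semaphorin of arterial endothelium, fell in both tumours. It lay at 9.76 to 10.18 (median 9.93) across hindbrain arrays, at 7.42 to 8.99 (median 7.84) across Shh arrays and at 7.43 to 8.49 (median 8.04) across Wnt arrays, and neither tumour overlapped the hindbrain. The fall was 3.91-fold in Wnt (-1.97 ± 0.20, adjusted p = 1.06e-08) and 3.64-fold in Shh (-1.86 ± 0.20, adjusted p = 8.22e-08), with -0.11 ± 0.20, adjusted p = 0.722 between the tumours.

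Sema3f, a ligand that repels endothelial cells through neuropilin 2, rose 4.03-fold in Wnt against hindbrain (2.01 ± 0.24, adjusted p = 1.8e-07). It spanned 8.33 to 8.73 (median 8.53) in the hindbrain arrays, 7.57 to 10.0 (median 8.74) in the Shh arrays and 9.72 to 11.18 (median 10.73) in the Wnt arrays, so Wnt and hindbrain did not overlap while 1 Shh array reached into the Wnt range. Sema3f was higher in Wnt than in Shh (1.84 ± 0.24, adjusted p = 1.35e-06), with 0.17 ± 0.24, adjusted p = 0.629 in Shh against hindbrain. Sema3e, the ligand of Plxnd1, was raised in Shh tumours. It ranged over 4.66 to 5.34 (median 5.01) in Wnt tumours, 5.68 to 8.03 (median 6.90) in Shh tumours and 4.60 to 5.32 (median 5.03) in hindbrain. All 8 Shh arrays were above all 16 others, whose means were below 5.24, so the size of the difference is uncertain. The differences were 1.80 ± 0.22, adjusted p = 4.7e-07 against hindbrain and -1.80 ± 0.22, adjusted p = 3.86e-07 for Wnt against Shh. Sema3a, a repellent of axons and vessels, rose in both tumours without overlap, with 1.11 ± 0.14, adjusted p = 4.49e-07 in Wnt and 0.82 ± 0.14, adjusted p = 6.39e-05 in Shh. It lay at 5.24 to 5.49 (median 5.29) across hindbrain arrays, at 5.57 to 7.04 (median 6.11) across Shh arrays and at 6.07 to 6.62 (median 6.50) across Wnt arrays, and its hindbrain values lay close to background.

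Among membrane semaphorins, Sema4b, a transmembrane ligand, rose in Wnt tumours. It spanned 7.34 to 7.71 (median 7.48) in the hindbrain arrays, 6.80 to 8.47 (median 7.70) in the Shh arrays and 8.75 to 9.92 (median 9.51) in the Wnt arrays, and the Wnt arrays stood above both other groups. The differences were 1.92 ± 0.19, adjusted p = 8.29e-09 against hindbrain and 1.81 ± 0.19, adjusted p = 4.82e-08 against Shh. Sema4d, a ligand of Plxnb1 that also acts in immune cells, fell in both tumours with partial overlap (-1.0 ± 0.23, adjusted p = 0.000972 in Wnt, -1.23 ± 0.23, adjusted p = 0.000185 in Shh). The markers of microglia and macrophages were also lower in both, with 13 of 14 lower in Wnt and 11 of 14 in Shh, and their part in the Sema4d values was not tested. Sema6d, a ligand of Plxna1, rose in Shh tumours (1.18 ± 0.15, adjusted p = 1.51e-06). It ranged over 9.99 to 11.26 (median 10.94) in Wnt tumours, 11.33 to 11.94 (median 11.57) in Shh tumours and 9.94 to 10.77 (median 10.45) in hindbrain, with the Shh arrays above both other groups. Sema6a, of the same class, was also higher in every Shh array than in any hindbrain array (0.52 ± 0.098, adjusted p = 0.000168). Sema7a, a lipid-anchored semaphorin that signals through integrins, lay at 12.11 to 12.34 (median 12.27) across hindbrain arrays, at 11.70 to 12.32 (median 11.91) across Shh arrays and at 10.07 to 11.73 (median 11.19) across Wnt arrays. It fell in Wnt without overlap against hindbrain (-1.24 ± 0.17, adjusted p = 1.65e-06) and against Shh with overlap (-0.91 ± 0.17, adjusted p = 0.000172), and with the endothelial marker mean as a covariate the first difference was -0.04 ± 0.17, adjusted p = 0.928. In Shh against hindbrain Sema7a had -0.33 ± 0.17, adjusted p = 0.139. The same Shh difference passed when Wnt replicates 1 and 8 were left out (-0.33, adjusted p = 0.00802). Over the 20 semaphorins, 6 rose and 5 fell in each tumour against hindbrain (30% and 25%). Of all genes, 23.2% rose and 22% fell in Wnt, and 18.9% rose and 18.9% fell in Shh. The 55% of semaphorins called in each tumour lay near the shares among genes above 5.24 in at least 1 group, 57.8% and 47.5%. Between the tumours 3 were higher and 7 lower in Wnt (15% and 35%, against 18% and 17.8% of all genes).

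The other semaphorins moved less or with more overlap. Sema5a, a transmembrane ligand, rose in Wnt (0.76 ± 0.25, adjusted p = 0.0147), a call lost without Wnt replicates 1 and 8 (0.42, adjusted p = 0.112) and with the endothelial covariate (0.03 ± 0.45, adjusted p = 0.979). It was higher in Wnt arrays than in Shh arrays (1.23 ± 0.25, adjusted p = 0.000314), and Sema3d rose in Wnt (1.38 ± 0.38, adjusted p = 0.00385). Sema4f rose in both tumours (0.41 ± 0.14, adjusted p = 0.0176 in Wnt, 0.71 ± 0.14, adjusted p = 0.000245 in Shh), while Sema3b fell in Shh (-0.81 ± 0.25, adjusted p = 0.011). Sema4g fell in both, but its fall in Shh (-0.43 ± 0.17, adjusted p = 0.0478) was lost when any 1 of 15 arrays was left out. Sema6b was lower in Wnt than in Shh (-0.58 ± 0.19, adjusted p = 0.0153), as was Sema6c (-0.47 ± 0.13, adjusted p = 0.0058). Sema4a, Sema4c and Sema5b passed the test in no comparison of all arrays.

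Of the plexins, the receptors of semaphorins, 5 of 9 rose and 1 fell in each tumour against hindbrain (66.7% called, against 45.3% of all genes in Wnt and 37.8% in Shh). Plxnc1, the receptor of Sema7a, showed the largest difference. It spanned 6.29 to 6.92 (median 6.6) in the hindbrain arrays, 8.20 to 10.12 (median 9.04) in the Shh arrays and 6.18 to 7.18 (median 6.40) in the Wnt arrays. Every Shh array was above every other array, while hindbrain and Wnt arrays overlapped. Plxnc1 rose 5.73-fold in Shh (2.52 ± 0.23, adjusted p = 4.41e-09) and was lower in Wnt than in Shh (-2.56 ± 0.23, adjusted p = 1.96e-09), with -0.04 ± 0.23, adjusted p = 0.906 in Wnt against hindbrain. Plxna3 rose in both tumours (1.18 ± 0.15, adjusted p = 2.67e-07 in Wnt, 1.08 ± 0.15, adjusted p = 2.47e-06 in Shh), with 0.10 ± 0.15, adjusted p = 0.639 between them. It ranged over 7.64 to 8.57 (median 8.25) in Wnt tumours, 7.45 to 8.69 (median 8.13) in Shh tumours and 6.90 to 7.21 (median 7.05) in hindbrain, so neither tumour overlapped the hindbrain.

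Plxna4 fell in Shh tumours (-1.21 ± 0.25, adjusted p = 0.000498), and the Wnt arrays exceeded the Shh arrays by 1.39 ± 0.25, adjusted p = 9.47e-05. It lay at 8.87 to 9.72 (median 9.30) across hindbrain arrays, at 7.58 to 8.64 (median 8.06) across Shh arrays and at 8.50 to 10.56 (median 9.78) across Wnt arrays, and the Shh and hindbrain arrays did not overlap. Plxnb3, known from oligodendrocytes and neurons, fell in Wnt tumours without overlap (-1.15 ± 0.13, adjusted p = 6.58e-08 against hindbrain, -0.96 ± 0.13, adjusted p = 2.06e-06 against Shh). It spanned 5.36 to 5.94 (median 5.73) in Wnt arrays, 6.25 to 7.15 (median 6.56) in Shh arrays and 6.66 to 7.37 (median 6.80) in hindbrain. Markers of the oligodendrocyte lineage were lower in the same arrays, with a mean of 6.44 ± 0.11 in Wnt against 7.21 ± 0.17 in hindbrain (7 of 12 lower, 2 higher), and their part was not tested.

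Plxnd1, the plexin of endothelium, rose in Shh tumours without overlap, from 10.37 to 10.85 (median 10.69) in hindbrain to 11.29 to 11.88 (median 11.43) in Shh arrays (0.83 ± 0.15, adjusted p = 0.000112). Its Wnt arrays ran from 10.13 to 11.56 (median 11.18), a rise of 0.41 ± 0.15, adjusted p = 0.0302 that was lost when any 1 of 6 arrays was left out (hindbrain replicates 6 and 7, Wnt replicates 2, 4, 5 and 6, with differences from 0.34 to 0.39). Without Wnt replicates 1 and 8 the rise was 0.65. Plxnd1 was lower in Wnt than in Shh (-0.42 ± 0.15, adjusted p = 0.0316), a call lost without Shh replicates 2 or 5 or Wnt replicates 1, 7 or 8 (-0.41 to -0.29). Plxnb2, a receptor of class 4 semaphorins, rose in Wnt tumours (0.71 ± 0.12, adjusted p = 3.68e-05), from 10.65 to 11.10 (median 10.84) in hindbrain to 11.24 to 11.89 (median 11.58) in Wnt arrays without overlap, and with the endothelial covariate the difference was 0.23 ± 0.21, adjusted p = 0.544. Plxna1 and Plxnb1 each had a second, dimmer probe set that did not pass the test against hindbrain in either tumour. In Wnt against hindbrain it gave 0.27 for Plxna1, against 0.71 ± 0.17, adjusted p = 0.00108 with the probe set used, and -0.28 for Plxnb1, against 0.77 ± 0.14, adjusted p = 8.03e-05.

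**Figure D3:**
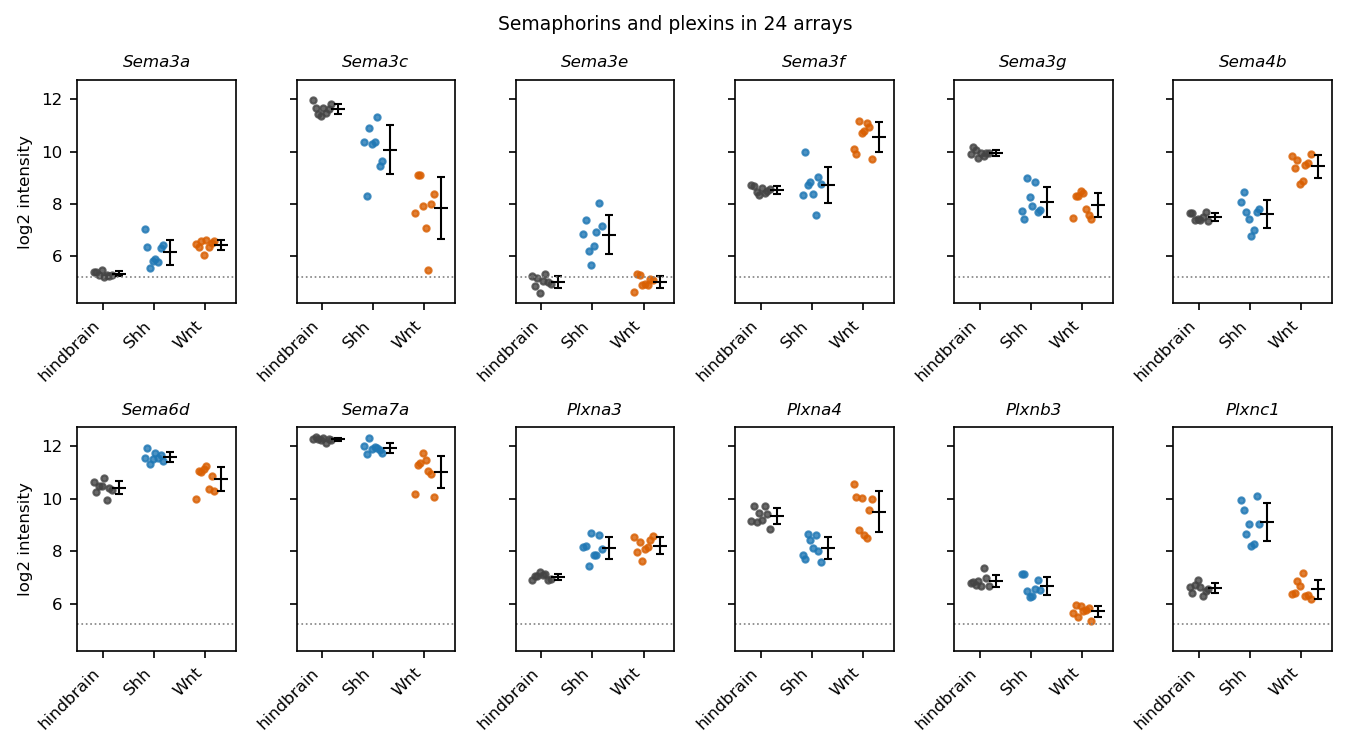
Log2 intensity of 8 semaphorins and 4 plexins, 1 point per array, drawn as for the Slits. Sema3c and Sema3g are below the hindbrain range in all tumour arrays, Sema3f and Sema4b are above it in all Wnt arrays, and Plxnc1 and Sema3e are above it in all Shh arrays.

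Most ephrins rose in Wnt tumours: 6 of 8 were higher than in hindbrain, 1 was lower and 1 missed the threshold. That is 75% up, where 23.2% of all genes rose. The median of the 8 differences was 0.72. In Shh tumours 2 rose, 2 fell and 4 did not pass. That is 25% up and 25% down, where 18.9% of all genes rose and 18.9% fell. The share of ephrins called in Shh was 50%, near the 47.5% of genes above 5.24 in at least 1 group. Efna4 spanned 6.59 to 7.30 (median 6.86) in the hindbrain arrays, 6.51 to 7.18 (median 6.96) in the Shh arrays and 7.94 to 9.09 (median 8.72) in the Wnt arrays, and only the Wnt arrays stood apart. It rose 3.52-fold against hindbrain (1.81 ± 0.14, adjusted p = 4.63e-11) and 3.51-fold against Shh (1.81 ± 0.14, adjusted p = 1.08e-10). Efna2 rose in Wnt without overlap (1.46 ± 0.15, adjusted p = 8.05e-09) and less in Shh (0.54 ± 0.15, adjusted p = 0.00472), over 7.74 to 8.93 (median 8.44) in Wnt arrays, 7.01 to 7.92 (median 7.55) in Shh arrays and 6.87 to 7.37 (median 6.92) in hindbrain. Efnb3, a ligand found on neurons, rose in both without overlap (1.30 ± 0.14, adjusted p = 2.85e-08 in Wnt, 0.85 ± 0.14, adjusted p = 3.46e-05 in Shh), over 8.27 to 9.11 (median 8.68) in Wnt arrays, 7.59 to 8.85 (median 8.20) in Shh arrays and 7.04 to 7.57 (median 7.39) in hindbrain.

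Efna3 and Efnb1 moved in opposite directions in the tumours. Efna3 ranged over 7.23 to 8.65 (median 7.79) in Wnt tumours, 5.70 to 6.49 (median 6.34) in Shh tumours and 7.01 to 7.40 (median 7.15) in hindbrain, with every Shh array below all others. It fell in Shh (-0.91 ± 0.18, adjusted p = 0.000241), rose in Wnt (0.69 ± 0.18, adjusted p = 0.00235) and differed between them by 1.60 ± 0.18, adjusted p = 1e-07. Efnb1 lay at 9.26 to 9.49 (median 9.37) across hindbrain arrays, at 8.48 to 9.10 (median 8.78) across Shh arrays and at 9.32 to 10.59 (median 10.20) across Wnt arrays. It too fell in Shh without overlap (-0.62 ± 0.12, adjusted p = 0.000306), rose in Wnt (0.76 ± 0.12, adjusted p = 1.51e-05) and differed between them by 1.38 ± 0.12, adjusted p = 3.12e-09. With the endothelial marker mean as a covariate the Wnt rise against hindbrain was no longer called in Efna3 (0.69 ± 0.34, adjusted p = 0.195) or Efnb1 (0.32 ± 0.21, adjusted p = 0.369). Efnb2, the ephrin of arteries, rose in Wnt against hindbrain (0.36 ± 0.12, adjusted p = 0.0227), a call lost without Wnt replicate 3 (0.30). It had -0.31 ± 0.12, adjusted p = 0.0544 in Shh, where it passed when any 1 of 5 arrays was left out (-0.39 to -0.31). Efna1, a ligand of Epha2 that endothelium makes, fell in Wnt (-0.45 ± 0.13, adjusted p = 0.00545), from 10.30 to 10.83 (median 10.58) in hindbrain to 9.41 to 10.51 (median 10.18) in Wnt arrays with overlap. With the endothelial marker mean as a covariate it was 0.41 ± 0.14, adjusted p = 0.036. The genes Efna1, Efna3 and Efna4 lie next to one another, with no protein-coding gene between them, yet the first fell and the others rose in Wnt tumours.

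Eph receptors were divided: 5 of 13 rose, 4 fell and 4 did not pass in Wnt against hindbrain, and 4 rose, 4 fell and 5 did not pass in Shh. The shares called were 69.2% and 61.5%, against 45.3% and 37.8% of all genes. The largest rise was that of Ephb6, a receptor without kinase activity. It spanned 5.63 to 6.32 (median 5.95) in the hindbrain arrays, 6.03 to 6.99 (median 6.44) in the Shh arrays and 7.64 to 9.35 (median 8.74) in the Wnt arrays, and the Wnt arrays stood above all others. Ephb6 rose 6.47-fold in Wnt against hindbrain (2.69 ± 0.17, adjusted p = 4.05e-12) and 4.63-fold against Shh (2.21 ± 0.17, adjusted p = 2.66e-10). Its smaller rise in Shh (0.48 ± 0.17, adjusted p = 0.0301) was lost without hindbrain replicates 5 or 6 or Shh replicates 2, 4 or 8 (0.40 to 0.47). Ephb3, a known target of beta-catenin in the gut, ranged over 7.60 to 8.98 (median 8.62) in Wnt tumours, 6.61 to 7.39 (median 6.94) in Shh tumours and 6.79 to 7.48 (median 7.22) in hindbrain. It was higher in every Wnt array than in any other (1.33 ± 0.17, adjusted p = 2.57e-07 against hindbrain, 1.55 ± 0.17, adjusted p = 5.34e-08 against Shh).

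Ephb1 rose in Wnt without overlap (1.64 ± 0.18, adjusted p = 4.19e-08) and less in Shh (0.66 ± 0.18, adjusted p = 0.00574), over 7.41 to 8.95 (median 8.27) in Wnt arrays, 6.64 to 7.68 (median 7.25) in Shh arrays and 6.26 to 6.78 (median 6.57) in hindbrain. A second probe set of Ephb1 gave smaller differences, 0.36 (adjusted p = 0.0184) in Wnt and 0.085 (adjusted p = 0.629) in Shh. Ephb4, the receptor of veins, was not among the calls. It lay at 9.46 to 10.17 (median 9.85) across hindbrain arrays, at 9.24 to 10.21 (median 9.88) across Shh arrays and at 9.31 to 9.96 (median 9.40) across Wnt arrays, with -0.33 ± 0.14, adjusted p = 0.0557 in Wnt and -0.10 ± 0.14, adjusted p = 0.624 in Shh. The Wnt difference of Ephb4 did pass when any 1 of 5 arrays was left out (-0.39 to -0.33).

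Of the A receptors, Epha4 fell in Wnt tumours without overlap (-1.25 ± 0.24, adjusted p = 9.67e-05), and with the endothelial covariate the difference was -0.54 ± 0.43, adjusted p = 0.458. It spanned 9.50 to 9.89 (median 9.68) in the hindbrain arrays, 8.03 to 9.71 (median 9.25) in the Shh arrays and 7.38 to 9.23 (median 8.53) in the Wnt arrays, the tumours being spread more widely. Its fall in Shh (-0.62 ± 0.24, adjusted p = 0.0414) was lost when any 1 of 10 arrays was left out (-0.63 to -0.48), as was the lower level in Wnt than in Shh (-0.63 ± 0.24, adjusted p = 0.0406) for any 1 of 9 (-0.64 to -0.48). Epha7 rose in both tumours (1.46 ± 0.33, adjusted p = 0.000655 in Wnt, 1.05 ± 0.33, adjusted p = 0.0142 in Shh). Its Shh arrays, from 6.95 to 8.12 (median 7.58), lay above the hindbrain range of 6.25 to 6.89 (median 6.55), while its Wnt arrays, from 6.27 to 10.19 (median 7.96), overlapped it. Epha8, known from neurons, rose in Shh (1.09 ± 0.28, adjusted p = 0.00358) and was lower in Wnt than in Shh (-1.26 ± 0.28, adjusted p = 0.00097), over 6.86 to 9.89 (median 7.55) in Shh arrays, 6.44 to 7.07 (median 6.69) in hindbrain and 6.30 to 6.72 (median 6.61) in Wnt. Epha2, the receptor of Efna1 in endothelium, rose in Wnt with overlap (0.50 ± 0.16, adjusted p = 0.0112). That call was lost without Wnt replicates 1 and 8 (0.33, adjusted p = 0.0801), and with the endothelial marker mean as a covariate it was -0.27 ± 0.24, adjusted p = 0.537. Epha1 fell in both tumours (-0.41 ± 0.10, adjusted p = 0.0014 in Wnt, -0.46 ± 0.10, adjusted p = 0.000805 in Shh), as did Epha10 (-0.24 ± 0.092, adjusted p = 0.0346 in Wnt, lost when any 1 of 10 arrays was left out, and -0.41 ± 0.092, adjusted p = 0.001 in Shh). Epha3 had arrays from 5.51 to 10.38 in Wnt tumours, the highest being replicate 3, and passed the test in no comparison of all arrays. Without that array it was higher in Shh than in hindbrain (1.06, adjusted p = 0.003) and lower in Wnt than in Shh (-0.93, adjusted p = 0.0116).

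**Figure D4:**
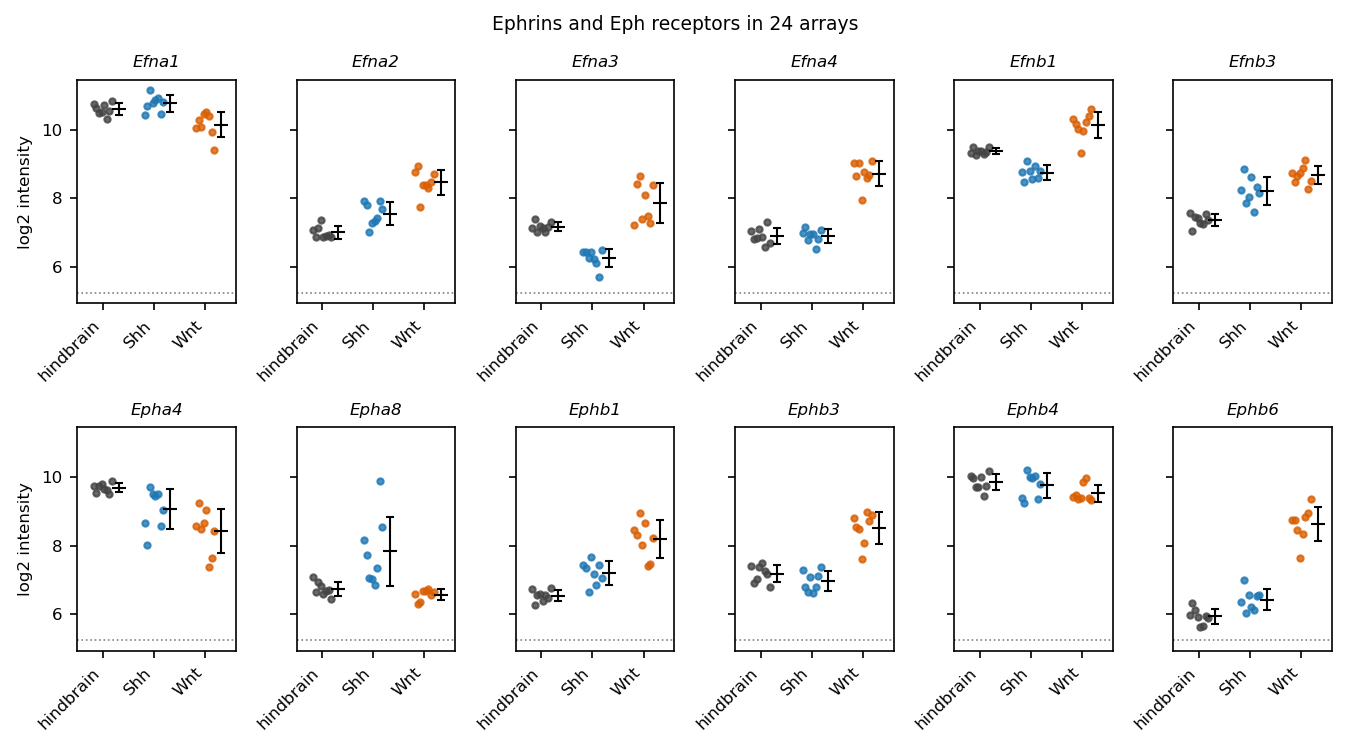
Log2 intensity of 6 ephrins and 6 Eph receptors, 1 point per array, drawn as for the Slits. Efna4, Ephb3 and Ephb6 are higher in all Wnt arrays than in the other 16, and Efna3 is lower in all Shh arrays than in the other 16.

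Of the 64 members, 18 differed by at least 2-fold upward and 8 downward in Wnt against hindbrain (6.79% and 5.29% of all genes). All 8 arrays of a group lay above all 8 of the other in 15 members and below in 7 (10.6% and 9.42% of all genes). Members that were called, passed 2-fold and did not overlap numbered 14 up and 7 down (5.6% and 4.45%). In Shh against hindbrain, 8 members were at least 2-fold higher and 5 lower (4.14% and 2.86% of all genes). There, 13 were higher and 7 lower without overlap (7.13% and 5.55%), and 7 and 4 met all criteria (3.02% and 2.07%). In Wnt against Shh, 14 were at least 2-fold higher and 5 lower (4.68% and 3.49%). Without overlap 10 were higher and 6 lower (5.8% and 4.32%), and 10 and 4 met all criteria (3.34% and 1.98%). Plxna2 and Efna5 passed the test in no comparison of all arrays.

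Other genes of these systems were counted from lists of co-receptors, intracellular effectors and cleaving enzymes, chosen with earlier results of these data known. Of 28 co-receptors and further guidance genes, 13 rose, 7 fell and 8 did not pass in Wnt against hindbrain, 14 rose, 3 fell and 11 did not pass in Shh against hindbrain, and 10 were higher, 11 lower and 7 did not pass in Wnt against Shh. The shares called were 71.4%, 60.7% and 75%, against 45.3%, 37.8% and 35.8% of all genes. Among genes above 5.24 in at least 1 group they were 57.8%, 47.5% and 45.5%. Dcc, the attractive netrin receptor, rose in both tumours (3.40 ± 0.30, adjusted p = 1.33e-09 in Wnt, 3.68 ± 0.30, adjusted p = 1.21e-09 in Shh), from a hindbrain mean of 5.58. Draxin, a secreted ligand of Dcc, rose by 3.33 ± 0.24, adjusted p = 1.07e-10 in Shh and was lower in Wnt than in Shh (-2.66 ± 0.24, adjusted p = 3.22e-09). Flrt3, a partner of Unc5 receptors, rose in Wnt (2.38 ± 0.30, adjusted p = 3.26e-07), and Flrt1 was higher in Wnt than in Shh (2.14 ± 0.21, adjusted p = 1.31e-08). The hindbrain mean of Flrt3 was at or below 5.24, so the size of its rise is uncertain. Plxdc1, a receptor of tumour vessels named for plexin-like sequence, fell in Wnt (-3.14 ± 0.16, adjusted p = 4.95e-14), as did the VEGF receptor Flt1 (-1.94 ± 0.19, adjusted p = 4.54e-09), and Plxdc2 fell in Shh (-1.05 ± 0.14, adjusted p = 1.42e-06). Flt1 and Kdr of this list are also among the 16 endothelial markers, of which 15 fell in Wnt against hindbrain. The neuropilins, co-receptors of class 3 semaphorins, had smaller differences, with 0.42 ± 0.094, adjusted p = 0.000583 for Nrp1 and 0.12 ± 0.16, adjusted p = 0.599 for Nrp2 in Wnt, both named after their values were seen.

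Of 54 intracellular effectors, 16 rose, 17 fell and 21 did not pass in Wnt and 17 rose, 8 fell and 29 did not pass in Shh against hindbrain, and 11 were higher, 20 lower and 23 did not pass between the tumours. The shares called against hindbrain, 61.1% and 46.3%, lay near those of all genes above 5.24 in at least 1 group, 57.8% and 47.5%, and the share between the tumours was 57.4% against 45.5%. Dpysl3, of the CRMP family that carries semaphorin signals to microtubules, rose in Wnt (3.89 ± 0.17, adjusted p = 5.17e-15), as did Pdzrn3, a ubiquitin ligase of vessels (3.36 ± 0.17, adjusted p = 2.96e-14). Crmp1, of the same family as Dpysl3, rose in Shh (3.16 ± 0.28, adjusted p = 3.31e-09) and was lower in Wnt than in Shh (-3.0 ± 0.28, adjusted p = 4.96e-09). Vav3, an exchange factor downstream of Eph receptors, also rose in Shh (1.64 ± 0.17, adjusted p = 3.41e-08). Srgap2, a GTPase activator of the Slit and Robo pathway, fell in Wnt (-1.94 ± 0.11, adjusted p = 4.23e-13) and in Shh (-0.94 ± 0.11, adjusted p = 3.04e-07), as did the kinase Fes in Wnt (-1.32 ± 0.11, adjusted p = 4.27e-10) and Chn2 in Shh (-1.25 ± 0.23, adjusted p = 0.000146). Dpysl5 was lower in Wnt than in Shh (-1.68 ± 0.17, adjusted p = 3.11e-08). Of 7 cleaving enzymes, which can release ephrins, Ephs and semaphorins from membranes, 3 rose, 2 fell and 2 did not pass in Wnt. In Shh 4 rose, 1 fell and 2 did not pass. The share called was 71.4% in each, against 45.3% and 37.8% of all genes. Among genes above 5.24 in at least 1 group it was 57.8% and 47.5%. Mmp2 (3.61 ± 0.25, adjusted p = 1.03e-11) and Mmp14 (2.72 ± 0.21, adjusted p = 6.36e-11) rose in Wnt, and Adam10 (-0.39 ± 0.070, adjusted p = 4.3e-05) and Adam17 (-0.62 ± 0.070, adjusted p = 6.52e-08) fell. In Shh, Mmp14 (1.62 ± 0.21, adjusted p = 9.29e-07) and Mmp9 (1.46 ± 0.35, adjusted p = 0.00189) rose and Furin (-0.22 ± 0.070, adjusted p = 0.0154) fell.

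Many members are also made by neurons, glia, fibroblasts or tumour cells, and markers of such cells moved with the groups. The endothelial marker mean ran over 9.75 to 11.10 in Wnt arrays, 11.19 to 11.77 in Shh arrays and 11.38 to 11.75 in hindbrain, and 15 of 16 fell and none rose in Wnt against hindbrain. The level of Shh replicate 7 was the lowest of the Shh arrays. Fibroblast markers were higher in the tumours, over 9.45 to 10.71 in Wnt arrays, 9.26 to 10.32 in Shh arrays and 8.12 to 8.88 in hindbrain, with 8 of 10 called up in each. Markers of granule neuron precursors, from which Shh medulloblastoma arises, were higher in Shh arrays: they ran over 6.38 to 6.95 in Wnt arrays, 7.33 to 8.98 in Shh arrays and 6.50 to 6.74 in hindbrain, and 12 of 15 rose. Their defining gene Atoh1 had group means of 8.60 for Shh against 5.73 for hindbrain and 5.63 for Wnt, and Barhl1 was below 5.24 in Wnt arrays alone. The list mean was highest in Shh replicates 7 (8.98) and 2 (8.97) and lowest in 3 (7.33). Shh replicate 7 was also the highest Shh array for Plxnc1 (10.12), Sema3e (8.03), Epha8 (9.89) and Robo1 (10.29), and replicate 5 the lowest for Plxnc1, Epha8 and Robo1. Sema3e was lowest in replicate 4. Efnb3, Plxna1, Plxnd1, Robo2, Sema6d and Unc5a rose in Shh without overlap and were highest in replicate 2. The precursor list mean of that replicate (8.97) was nearly that of replicate 7 (8.98). Sema3a, Plxna3 and Epha7, which also rose without overlap, were highest in replicates 1, 4 and 5. Sema6a was highest in replicate 6 and lowest in 7.

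Pericyte markers ran over 8.10 to 9.96 in Wnt arrays, 10.04 to 10.54 in Shh arrays and 9.59 to 10.72 in hindbrain. Smooth muscle markers ran from 8.23 to 9.11, 6.99 to 7.64 and 8.47 to 9.22, and astrocyte markers from 7.68 to 8.12, 7.68 to 8.92 and 7.23 to 8.11, in the same order. Neuron markers ran from 6.30 to 6.73, 6.16 to 7.38 and 6.36 to 6.99, with Nefm at or below 5.24 in every group. Choroid plexus and ependyma markers ran from 8.16 to 8.41, 6.48 to 7.88 and 6.31 to 9.14, and lymphocyte markers from 5.51 to 5.77, 5.74 to 6.44 and 5.85 to 6.0. The choroid plexus and ependyma mean was highest in hindbrain replicates 8 (9.14), 1 (8.72) and 5 (7.83). Slit2 was also highest in these among hindbrain arrays (8.07, 7.66 and 7.13), as was Sema3b. Shh replicate 5 had the highest such mean of the Shh arrays (7.88), with Slit2 at 7.18. List means can hide genes that go opposite ways. In Wnt against hindbrain, 3 of 7 choroid plexus and ependyma markers rose and 3 fell (-3.2 to 4.93). Of 13 neuron markers 4 rose and 4 fell, of 12 astrocyte markers 4 rose and 2 fell. Of 12 pericyte markers 0 rose and 7 fell, and of 6 smooth muscle markers 1 rose and 2 fell. The part of these other cells in the members' differences was not tested.

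**Figure D5:**
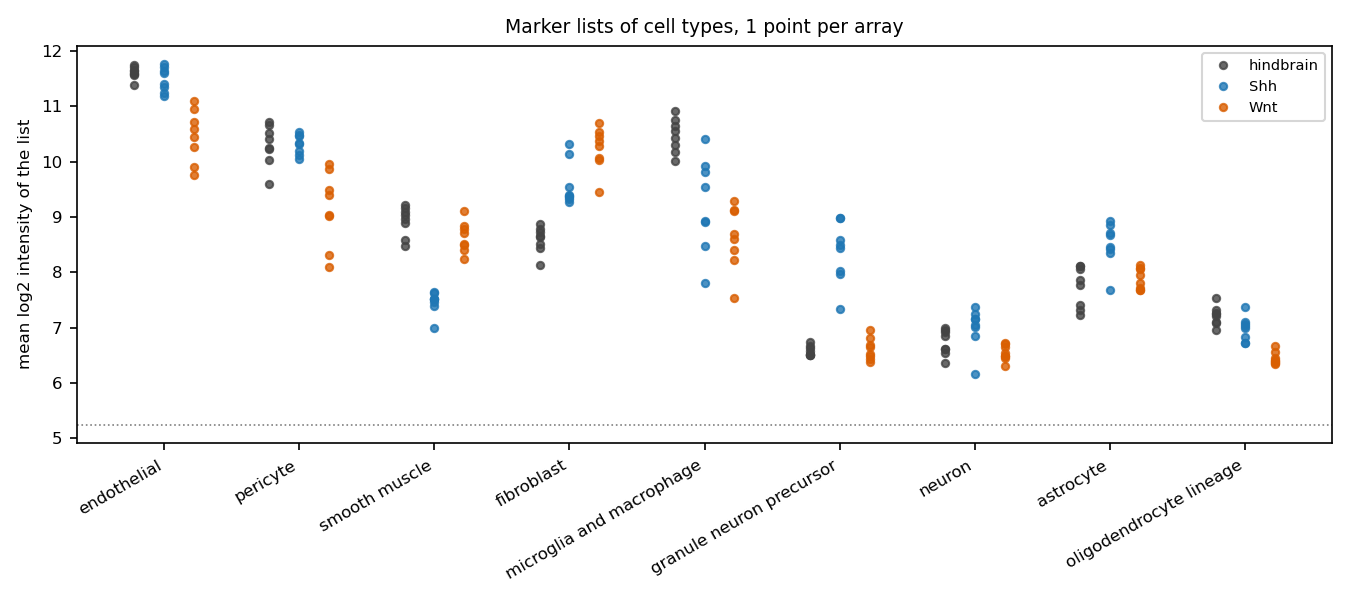
Mean log2 intensity of 9 cell type marker lists, 1 point per array in hindbrain (grey), Shh (blue) and Wnt (orange), with the 95th percentile of the ERCC controls as a dotted line. The endothelial mean is lower in all Wnt arrays than in all others, and the granule neuron precursor mean is higher in all Shh arrays than in all others.

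With the endothelial marker mean of each array as a covariate, 23 members were called in Wnt against hindbrain (17 up, 6 down) in place of 44, and 18% of all genes in place of 45.3%. No Wnt array reached the marker level of any hindbrain or Shh array, so this fit compares the groups at a level they do not share. Of the 44 calls, 18 held in the same direction, 20 were lost and 6 turned their sign. Those that held as rises were Robo1 (3.47 ± 0.33, adjusted p = 7.11e-08), Slit2 (2.63 ± 0.57, adjusted p = 0.00164), Unc5d (2.39 ± 0.43, adjusted p = 0.000254), Sema3f (2.26 ± 0.47, adjusted p = 0.00112), Efna4 (1.19 ± 0.21, adjusted p = 0.000224), Ephb6 (1.74 ± 0.24, adjusted p = 1.37e-05), Sema4b, Efna2, Efnb3, Ephb1, Plxnb1 and Plxnd1. Those that held as falls were Sema3c (-3.65 ± 0.79, adjusted p = 0.00164), Ntn4 (-1.69 ± 0.34, adjusted p = 0.00101), Plxnb3 (-1.23 ± 0.25, adjusted p = 0.000986), Sema3g (-0.77 ± 0.26, adjusted p = 0.037), Ntn1 and Sema4d.

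The 20 calls lost with the covariate included many of the members described above. Among rises they were Robo2 (0.57 ± 0.72, adjusted p = 0.678), Ephb3 (0.52 ± 0.25, adjusted p = 0.174), Plxna3 (0.38 ± 0.21, adjusted p = 0.239), Ntn3 (0.62 ± 0.24, adjusted p = 0.0812), Sema3a (0.59 ± 0.25, adjusted p = 0.107), Epha7 (0.85 ± 0.62, adjusted p = 0.418) and Sema3d (0.16 ± 0.67, adjusted p = 0.918), with Slit3, Efna3, Efnb1, Plxnb2 and Sema5a as given above, and Efnb2, Plxna1, Robo3 and Sema4f. Among falls they were Epha4 and Sema7a, as given above, and Epha6 and Sema4g. The 6 that turned were Efna1, Epha1, Epha10, Epha2, Robo4 and Unc5c, of which Efna1 and Robo4 passed in the other direction. In Wnt against Shh, 16 of 37 calls held, 14 were lost and 7 turned. Those lost included Robo1 (0.44 ± 0.30, adjusted p = 0.351), Ntn1 (-0.64 ± 0.27, adjusted p = 0.115), Ntn3 (0.47 ± 0.22, adjusted p = 0.162), Ntn4 (0.27 ± 0.32, adjusted p = 0.617), Plxna4 (0.95 ± 0.44, adjusted p = 0.151) and Sema6d (-0.28 ± 0.24, adjusted p = 0.463), while Slit2, Slit3, Efna3, Efna4, Efnb1, Ephb3, Ephb6, Plxnc1 and Sema3e were among those that held. In Shh against hindbrain, where the marker ranges overlapped, 36 members were called with the covariate and 35 without, and 37.5% and 37.8% of all genes.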

How the data were processed

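RNA of 24 samples, 8 in each of 3 groups, was measured on Affymetrix arrays. The authors deposited log2 values for 41345 probe sets. Partek 6.6 is named in the submitters' processing notes, with no role stated. For background correction, summarisation, normalization and genome build the sources used here give nothing. Array medians lay between 5.97 and 6.18, and precision rests on the 8 arrays per group.

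Of the probe sets, 23521 had 1 gene symbol in GEO's platform annotation and gave 22180 genes, the probe set of greatest average standing for its gene. Probe sets with several symbols (1814) were left out, among them 2 shared by Ntn5 and Sec1. All 64 members matched a RefSeq gene ID. The group comparison used R 4.3.3 and limma 3.58.1 (moderated linear model, 21 residual degrees of freedom, two-sided), adjusted by Benjamini-Hochberg over all genes. It was tested on simulated data with independent noise of the same spread in every group. That setting does not cover the unequal spread of the real groups. The labels call the arrays biological replicates without tying them to animals. The p-values set differences of group means against the spread between these samples, and whether each is an animal or a pool is not given.

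Members and lists were chosen with earlier results of these data known. Named in full were, per family, members called with a difference of at least 1 and no overlap (up to 6 per comparison) and the member with the highest mean. Other members follow in shorter form, and of each further gene list the largest rises and falls. Arrays were not treated as paired by replicate number. Deviations of same-numbered arrays correlated between -0.146 and 0.282 over 24 pairs, and 3 exceeded 0.1. Differently numbered pairs were not set beside them, so these values cannot decide whether the numbers mark shared handling. Alternatives covered probe set choice, scaling, a filter on low values, the variance model, array weights, fewer groups, the replicate block, the endothelial covariate and leaving arrays out. No red blood cell marker was measured under a single symbol.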

Additional observations from a re-analysis of the deposited data

Results flagged for a closer look

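In groups of 8 arrays of the 36 members named in full, 5 had an array set apart from the other 7 of its group, where chance flags about 1 in 20 groups and 108 were examined. Efna3 was lowest in Shh replicate 7, at 5.70, with the nearest Shh array at 6.12. Efna4 was lowest in Wnt replicate 4, at 7.94, next to 8.58. Ntn4 was lowest in Wnt replicate 6, at 7.20, next to 8.14. Hindbrain replicate 6 was highest for Plxnb3, at 7.37 next to 6.96, and lowest for Sema7a, at 12.11 next to 12.24. It also had the lowest endothelial marker mean of the hindbrain arrays, 11.38. None of these arrays changed the calls of these 5 genes when left out.

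In 3 members the tumours moved in opposite directions against hindbrain, each past the test, and the difference between the tumours was itself tested in the same limma fit. Wnt was above Shh by 1.60 ± 0.18, adjusted p = 1e-07 for Efna3, by 1.38 ± 0.12, adjusted p = 3.12e-09 for Efnb1 and by 1.43 ± 0.17, adjusted p = 4.4e-07 for Slit3. In each, all 8 Wnt arrays were above all 8 Shh arrays. With the endothelial marker mean as a covariate the Wnt rise against hindbrain was not called in any of them (adjusted p = 0.195 for Efna3, 0.369 for Efnb1 and 0.156 for Slit3), while the difference between the tumours still passed.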

How the results depend on the processing

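With the endothelial marker mean as a covariate, the members called fell to 23 (17 higher, 6 lower) in Wnt against hindbrain and to 19 (13 higher, 6 lower) in Wnt against Shh. The shares of all genes called also fell, from 45.3% to 18% and from 35.8% to 15.7%. In both comparisons the marker ranges of the groups did not overlap. Among members called with or without the covariate, the sign turned in Wnt against hindbrain for Efna1 (0.41), Epha1 (0.0084), Epha10 (0.011), Epha2 (-0.27), Plxna2 (0.63), Robo4 (0.47), Sema6b (0.87) and Unc5c (-1.02). In Wnt against Shh it turned for Efna1 (0.15), Epha2 (-0.12), Epha4 (0.0046), Plxna2 (0.61), Plxna3 (-0.61), Plxnd1 (0.29), Robo4 (0.25), Sema3g (0.96), Sema6b (0.51) and Sema7a (0.17). The cause was not tested. Under the other alternatives no sign turned in a member called on either side; uncalled differences did turn, among them Plxna4 (-0.073) and Plxnc1 (0.048) in Wnt against hindbrain without Wnt replicates 1 and 8.

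Leaving out each array in turn gave 42 to 47 members called in Wnt against hindbrain (29 to 31 higher, 13 to 16 lower), 32 to 37 in Shh against hindbrain (18 to 21 and 13 to 16) and 35 to 39 in Wnt against Shh (21 to 24 and 14 to 18). Over 192 member tests, 28 changed their call without at least 1 array, 18 by passing and 10 by being lost; besides those given above, Sema6c in Shh against hindbrain was lost without 2 arrays (0.31 to 0.32). Without Wnt replicates 1 and 8 the counts were 41, 34 and 35, and in Wnt against hindbrain 4 calls were lost (Epha10, Epha2, Sema5a and Unc5c) and that of Sema6d was gained. In Shh against hindbrain Epha4 and Sema4g were lost and Sema7a was gained. In Wnt against Shh Epha4, Plxnd1 and Sema6b were lost and Robo3 was gained. With the replicate number as a block the counts were 43, 36 and 38, with 1 call changed in each comparison. The remaining alternatives gave 43 to 47, 34 to 39 and 35 to 39. Signals near 5.24 limit what can be said of Robo3, Sema3e, Epha5 and Epha6.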
